A study of Rattus norvegicus with 6 samples.

Results

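The cell cycle and mitosis genes described here are a list of 42 genes that drive or accompany the passage of a cell through DNA replication and division, and their expression was followed array by array in glomeruli freshly isolated from adult male Sprague-Dawley rats. Members were chosen by gene symbol. A member was measured where a probeset of the array carried its symbol and no other, and where several probesets did, the one with the highest mean over all arrays was used. By this rule 38 of the 42 members were found among 14506 genes. Mcm3, Mcm4, Cenpf and Mki67 were not matched to such a probeset and were not analysed here. RNA was hybridised to Affymetrix rat whole-transcript arrays, with an array for each preparation. The PEC-enriched group (3 arrays) was made to collect glomeruli that kept Bowman's capsule and stayed on a 90 µm sieve, and the PEC-deprived group (3 arrays) to collect glomeruli without the capsule, caught by a 75 µm sieve. PECs are the parietal epithelial cells that line the inside of this capsule. The labels name no treatment and no genetic change for either group, and no cells were cultured, so the comparison asks how far the genes differ with the enrichment of capsulated glomeruli. The methods state individual rats for each preparation and n = 3 animals beside 6 arrays, and do not say whether both kinds of isolate were taken from the same rats. Neither isolate was pure, since the study's own counts found decapsulated glomeruli in each PEC-enriched preparation and a few capsulated ones in some PEC-deprived preparations. Both isolates hold whole glomeruli with podocytes, endothelium and mesangium, and fragments of tubules come with them. In such bulk RNA, a larger number of dividing cells and more RNA per cell cannot be told apart.

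Cells enter the cycle when D-type cyclins activate the kinases Cdk4 and Cdk6, and E-type cyclins with Cdk2 then release the E2F factors that switch on the genes of DNA replication. Cyclin A and cyclin B with Cdk1 carry the cell into mitosis, where the spindle checkpoint holds back the separation of chromosomes until all are attached. In most resting cells the mitotic genes are kept silent by a repressor complex that binds the CHR element in their promoters, and Cdkn1a and Cdkn1b, the inhibitors p21 and p27, hold the kinases themselves in check. Podocytes of the adult glomerulus are known as cells that rarely divide, whereas parietal, mesangial and endothelial cells can do so after injury.

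None of the 38 members passed the test between the isolates. With limma and Benjamini-Hochberg adjustment over all 29215 probesets, 0 members had an adjusted p under 0.01, and the lowest adjusted p of a member was 0.406, for Ccnd2. The same held for every other probeset, since 0.0% of them passed and the lowest adjusted p of any gene was 0.152. A regularised test with a Bayesian variance prior, the kind that the methods name, called 334 probesets (1.14%) at the same threshold, and again 0 members. At an unadjusted p under 0.05, 3 of 38 members passed (Ccnd2, Ccnb1 and Cdkn1b), a share of 7.89% beside 10.4% of all probesets and 13.6% of all genes. The values of the isolates did not overlap for 2 members, higher in PEC-enriched isolates for Ccnb1 and lower for Cdkn1b, a share of 5.26% beside 15.0% of all probesets and 18.7% of all genes. The median log2 fold change of the members, PEC-enriched minus PEC-deprived, was 0.09, with 25 higher and 13 lower, and over all genes it was -0.02, with 6501 higher and 8005 lower. These differences are small against the spread between arrays, and 3 arrays per isolate limit the precision of each.

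The members did differ between single arrays. PEC-enriched replicate 1 had the highest value of the 6 arrays in 28 of 38 members, and in each of the 19 measured members of the 4 mitotic roles (cyclins and kinases, spindle checkpoint, spindle and cytokinesis, and chromosome proteins). Over all genes, this array was the highest in 12.8%. Its distance to the next array was more than 0.2 on the log2 scale in 16 of the 19 mitotic members, with a median of 0.32 and a range of 0.03 to 0.68, whereas such a distance was seen in 233 of 14506 genes (1.61%). With each gene centred on its own mean, the mean of the mitotic members was 0.45 on PEC-enriched replicate 1, 0.01 on replicate 2 and -0.17 on replicate 3. On the PEC-deprived arrays it was 0.01, -0.23 and -0.07. In this mean a single PEC-enriched array therefore stood apart, and replicates 2 and 3 lay within the range of the PEC-deprived arrays. Single members differed from the mean. Replicate 2 lay above all PEC-deprived arrays in Ccna2, Ccnb1, Ttk, Cdc20, Kif11, Kif23, Tpx2 and Prc1, narrowly so in some. Replicate 3 lay below all of them in Ccnb2, Plk1, Tpx2 and Top2a. Without PEC-enriched replicate 1 the median log2 fold change of the mitotic members moved from 0.21, with 18 higher and 1 lower, to -0.02, with 8 higher and 11 lower. That array was singled out after the values were seen, and nothing was tested on it.

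**Figure D1:**
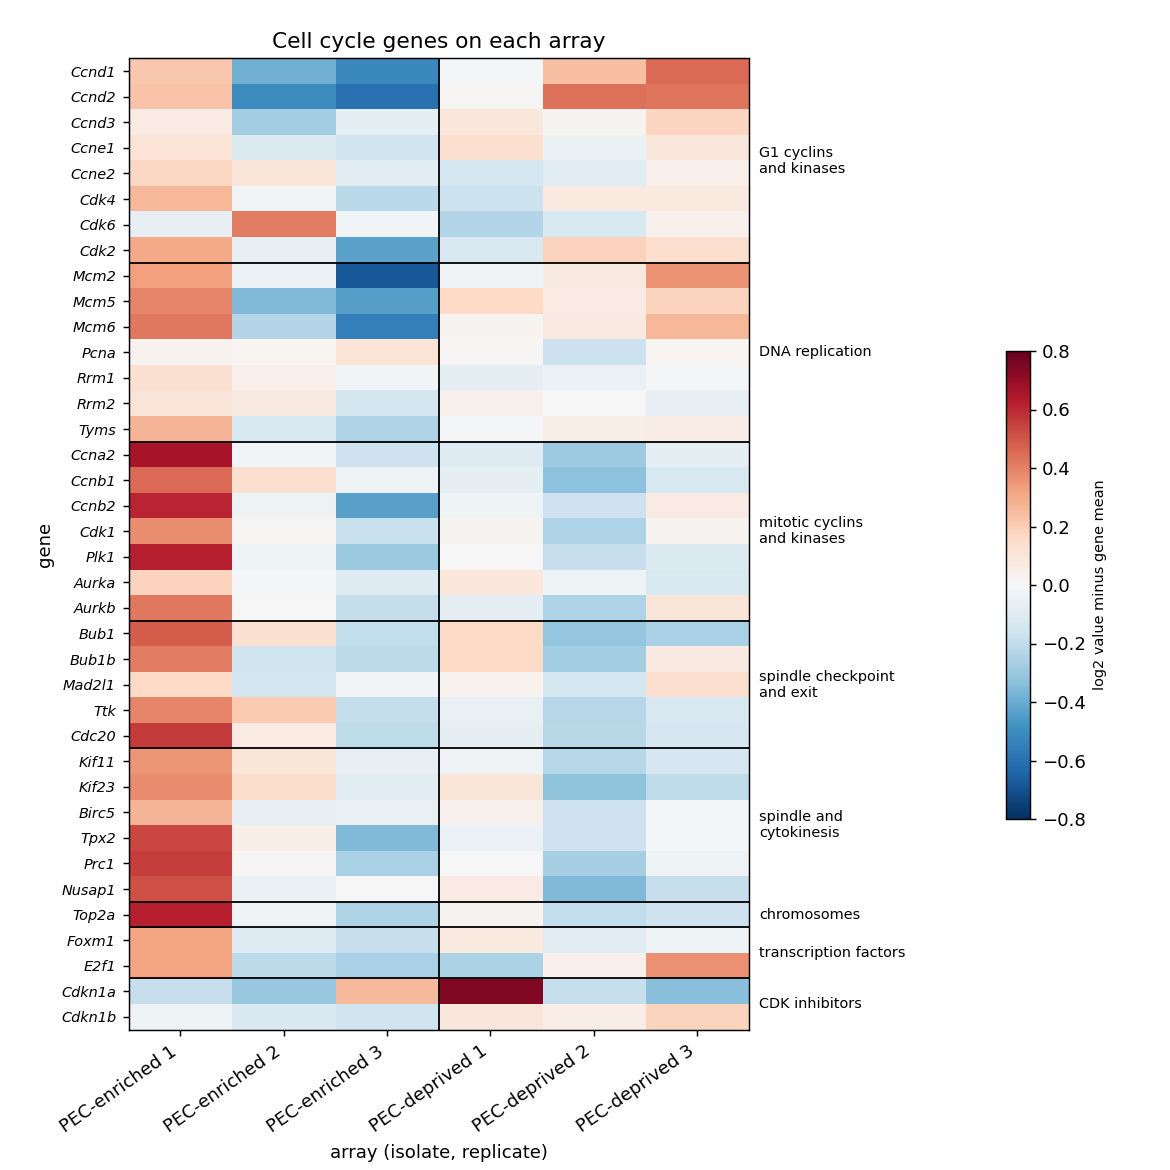
Heatmap of the 38 measured cell cycle members, ordered by role, on the 6 arrays. Colour is the log2 value minus the gene's mean over all arrays, red above and blue below the mean, and the colour scale runs from -0.8 to 0.8. The column of PEC-enriched replicate 1 is red in all mitotic roles, with a mean of 0.45 over the 19 mitotic members.

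**Figure D2:**
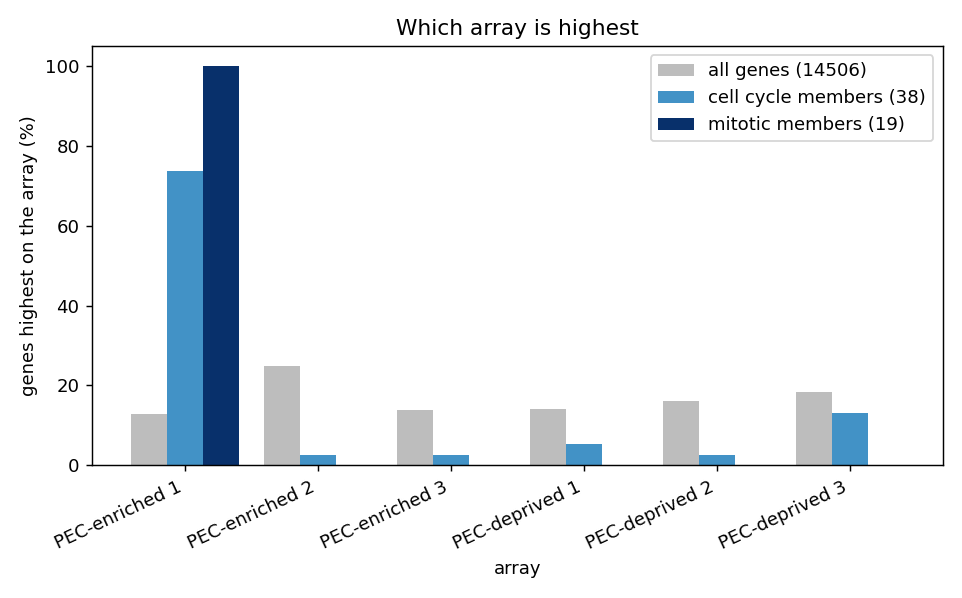
Percentage of genes whose highest value of the 6 arrays fell on each array, for all 14506 genes (grey), the 38 measured members (light blue) and the 19 mitotic members (dark blue). PEC-enriched replicate 1 was the highest array for 28 of 38 members and 19 of 19 mitotic members, and for 12.8% of all genes.

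The promoters of the members are shown with the elements known to time mitotic and DNA replication genes. Whether these elements bear on the array pattern of the mitotic members was not tested. RefSeq promoter windows of the rat assembly GRCr8, from 250 bases before to 50 bases after the start of the gene, were matched for 31 of 42 members. The letters TTTGAA or TTCGAA (the CHR element), CCAAT, and TTTCCCGC, TTTGGCGC or TTTCGCGC (E2F sites) were searched on both strands. A CHR match was present in 14 of 18 mitotic promoters (77.8%), those of Mki67 and Cenpf included, beside 19.7% of all 33469 promoters and 18.5% of those of protein-coding genes, and in 0 of 4 promoters of G1 cyclins and kinases. The mitotic promoters without a CHR match were those of Ccnb1, Aurka, Bub1 and Kif11. In Plk1, Mad2l1, Ttk, Cenpf and Nusap1 the only CHR match lay past the start of the gene. Of the 7 promoters of DNA replication genes, 2 held CHR letters (28.6%), those of Mcm2 and Rrm1. CCAAT was present in 14 of 18 mitotic promoters (77.8%) and in 5 of 7 of the DNA replication genes (71.4%), beside 37.5% of all. E2F letters were present in 5 of 7 promoters of the DNA replication genes (71.4%) and in 1 of 18 mitotic promoters (5.56%), beside 1.72% of all. The promoter of Mcm3, a gene not measured here, was among the 5. Its only E2F matches extended or lay past the start of the gene. Overlapping matches of CHR and CCAAT were found once, in the promoter of Mki67. A match describes these letters only and does not show that a factor binds there.

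The 150 bases before the start are given for 5 mitotic members and 2 helicase genes that show the arrangement most plainly, 5′ to 3′ on the strand of the gene, with every match of the 3 elements that lies whole within them in capitals. They lie at chr8:79981659-79981808 for Ccnb2 (minus strand), chr20:19265143-19265292 for Cdk1 (plus strand), chr5:137255800-137255949 for Cdc20 (minus strand), chr1:143659331-143659480 for Prc1 (plus strand), chr10:84473094-84473243 for Top2a (minus strand), chr19:13488663-13488812 for Mcm5 (plus strand) and chr13:42404353-42404502 for Mcm6 (minus strand).
Ccnb2: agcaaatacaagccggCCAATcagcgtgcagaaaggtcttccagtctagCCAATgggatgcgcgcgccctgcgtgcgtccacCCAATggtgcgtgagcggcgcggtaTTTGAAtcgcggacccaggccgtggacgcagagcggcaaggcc
Cdk1: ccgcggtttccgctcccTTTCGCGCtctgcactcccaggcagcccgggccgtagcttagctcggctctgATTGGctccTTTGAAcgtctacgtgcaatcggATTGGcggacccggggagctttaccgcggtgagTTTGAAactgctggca
Cdc20: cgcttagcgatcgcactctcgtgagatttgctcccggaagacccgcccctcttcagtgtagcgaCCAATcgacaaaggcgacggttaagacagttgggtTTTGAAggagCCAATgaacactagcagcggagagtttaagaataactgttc
Prc1: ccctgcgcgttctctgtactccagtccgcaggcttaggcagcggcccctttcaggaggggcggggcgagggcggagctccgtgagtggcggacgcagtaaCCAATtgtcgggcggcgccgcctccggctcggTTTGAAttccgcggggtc
Top2a: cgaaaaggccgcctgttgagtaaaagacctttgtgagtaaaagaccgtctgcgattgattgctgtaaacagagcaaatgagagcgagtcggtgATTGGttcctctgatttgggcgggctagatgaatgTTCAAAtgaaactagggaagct
Mcm5: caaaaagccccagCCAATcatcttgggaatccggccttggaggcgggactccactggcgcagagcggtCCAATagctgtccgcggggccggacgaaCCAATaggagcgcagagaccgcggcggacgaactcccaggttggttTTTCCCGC
Mcm6: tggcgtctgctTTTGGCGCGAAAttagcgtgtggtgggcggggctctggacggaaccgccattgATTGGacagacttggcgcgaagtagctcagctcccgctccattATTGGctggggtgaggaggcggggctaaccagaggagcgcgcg
Within these bases, the CHR element of Ccnb2 began 43 bases before the start, with CCAAT letters 3 times upstream of it, the nearest at 68 bases. In Cdc20 it began 51 bases before the start and stood between CCAAT letters at 86 and 41. Prc1 had it at 18 bases and Top2a at 22, the latter on the opposite strand. Cdk1 had CHR letters at 72 and 16 bases and was the mitotic promoter with an E2F match, at 133. Mcm5 and Mcm6 had no CHR match, and both carried E2F letters, in Mcm5 at 8 bases from the start and in Mcm6 at 139 and 135.

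The cyclins and kinases of G1 open the cycle, and their pattern differed from the mitotic one. Of 8 measured members 3 had a higher and 5 a lower mean in PEC-enriched isolates, with a median log2 fold change of -0.12. Ccnd1 and Ccnd2 encode the D-type cyclins that couple growth factor signals to the cycle. Ccnd1 had log2 values of 11.29, 10.69 and 10.56 on PEC-enriched replicates 1 to 3 and 11.07, 11.32 and 11.53 on the PEC-deprived arrays. Ccnd2 had 11.03, 10.29 and 10.20 in PEC-enriched and 10.81, 11.24 and 11.23 in PEC-deprived isolates. In both genes PEC-enriched replicates 2 and 3 lay below all PEC-deprived arrays, and replicate 1 lay among them. The log2 fold change was -0.46 for Ccnd1 (SE 0.201, limma adjusted p = 0.487) and -0.59 for Ccnd2 (SE 0.224, adjusted p = 0.406), the lowest of all members, and without PEC-enriched replicate 1 it was -0.68 and -0.85. Cdk6, a partner kinase of these cyclins, had the highest fold change of the role. Its values were 8.14, 8.61 and 8.18 in PEC-enriched and 7.97, 8.08 and 8.24 in PEC-deprived isolates, so that the groups overlapped (log2 fold change 0.21, SE 0.144, limma adjusted p = 0.724). Unlike most members, Cdk6 was highest on PEC-enriched replicate 2. The remaining members Ccnd3, Ccne1, Ccne2, Cdk4 and Cdk2 had log2 fold changes between -0.19 and 0.12. Ccne2, Cdk4 and Cdk2 were highest on PEC-enriched replicate 1.

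The DNA replication members include subunits of the MCM helicase, which unwinds DNA at the fork, the sliding clamp Pcna, and Rrm1, Rrm2 and Tyms, which make the building blocks of DNA. Of 7 measured, 3 had a higher and 4 a lower mean in PEC-enriched isolates (median log2 fold change -0.07). Mcm5 had values of 7.98, 7.24 and 7.15 in PEC-enriched and 7.75, 7.66 and 7.77 in PEC-deprived isolates. PEC-enriched replicate 1 was the highest array and the other PEC-enriched arrays were the lowest, and the log2 fold change was -0.27 (SE 0.204, limma adjusted p = 0.755). Mcm2 and Mcm6, named after their values were seen, had the same order of the PEC-enriched arrays, at 8.59, 8.21 and 7.58 for Mcm2 and 8.48, 7.82 and 7.51 for Mcm6. The PEC-deprived values were 8.23, 8.33 and 8.62 for Mcm2 and 8.08, 8.13 and 8.32 for Mcm6. In both genes PEC-enriched replicates 2 and 3 lay below all PEC-deprived arrays, and replicate 1 was the highest array in Mcm6 and just under PEC-deprived replicate 3 in Mcm2. Pcna was nearly level over the arrays. It had values of 8.46, 8.45 and 8.54 in PEC-enriched and 8.44, 8.26 and 8.45 in PEC-deprived isolates (log2 fold change 0.10, SE 0.0949, limma adjusted p = 0.823), the highest fold change of the role. Rrm1, Rrm2 and Tyms had log2 fold changes of 0.09, 0.02 and -0.07, and all were highest on PEC-enriched replicate 1. The second probesets of Rrm1 and Rrm2 had log2 fold changes of -0.01 and 0.00.

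Taking replicates 2 and 3 of the PEC-enriched isolates alone, 10 of 38 members (26.3%) lay with both values below all PEC-deprived arrays, beside 15.0% of all probesets and 17.7% of all genes, and 1 member (Ccnb1) lay above all of them, beside 12.8% of probesets and 16.4% of genes. The 10 members were Ccnd1, Ccnd2, Ccnd3, Ccne1, Mcm2, Mcm5, Mcm6, Tyms, Foxm1 and Cdkn1b. None of the 19 mitotic members was among them. In the wider lists described below, both values lay below all PEC-deprived arrays in 13 of 61 genes of mitosis and cytokinesis (21.3%). They lay above all of them in 5. For replication licensing and the fork, 11 of 46 genes (23.9%) lay below and 3 above. For pocket proteins, E2F factors and other regulators, 4 of 43 (9.30%) lay below and 7 above. These counts were chosen after the values were seen. Ccnd1 and Ccnd2 had a mean centred value of 0.22, -0.44 and -0.56 on the PEC-enriched arrays and 0.00, 0.34 and 0.44 on the PEC-deprived arrays. For the 3 MCM genes these means were 0.38, -0.21 and -0.56 against 0.05, 0.07 and 0.27. The endothelial marker list was likewise low on PEC-enriched replicates 2 and 3, and its mean on replicate 1 lay narrowly below all PEC-deprived arrays. Single markers differed in this. In 6 of 11, replicate 1 lay below all PEC-deprived arrays. In the others, such as Kdr and Cdh5, it lay among them, as in Ccnd1 and Ccnd2. The 11 markers of 11 listed, Pecam1, Kdr and Flt1 among them, had a mean centred value of 0.11, -0.41 and -0.42 on the PEC-enriched arrays. On the PEC-deprived arrays it was 0.17, 0.30 and 0.24. In 11 of 11, PEC-enriched replicates 2 and 3 lay below all PEC-deprived arrays. The mean log2 level of the list ran from 10.89 to 11.42 in PEC-enriched and from 11.48 to 11.61 in PEC-deprived isolates. Of 10 measured leukocyte markers, 8 did the same, with mean levels of 7.39 to 8.03 and 7.91 to 8.13. So did 3 of the 7 measured markers of mesangium and smooth muscle. Among these were the mesangial genes Pdgfrb, at 11.33, 9.96 and 10.10 in PEC-enriched against 10.92, 10.78 and 10.86 in PEC-deprived isolates, and Gata3, at 10.95, 9.23 and 9.55 against 10.55, 10.58 and 10.52. As in Mcm5, PEC-enriched replicate 1 was the highest array of Pdgfrb and Gata3. In the remaining marker, Des, that array was instead the lowest, at 9.24, 9.27 and 9.53 in PEC-enriched against 9.58, 9.69 and 9.76 in PEC-deprived isolates. The smooth muscle genes Tagln and Myh11 of the same list had higher means in the PEC-enriched group, with log2 fold changes of 0.72 and 0.83. The part of endothelial, mesangial or blood-derived cells in the cyclin D and MCM values was not tested.

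The mitotic cyclins and kinases drive the entry into mitosis. All 7 had the higher mean in the PEC-enriched group, with a median log2 fold change of 0.15, and all 7 were highest on PEC-enriched replicate 1. Ccnb1 encodes cyclin B1, the partner of Cdk1. Its values were 7.33, 7.01 and 6.84 in PEC-enriched and 6.80, 6.55 and 6.75 in PEC-deprived isolates. Each PEC-enriched array was above each PEC-deprived array, narrowly so for PEC-enriched replicate 3 and PEC-deprived replicate 1, and the log2 fold change of 0.36 was the highest of all members (SE 0.139, limma adjusted p = 0.42). Aurka, the kinase of the spindle poles, had the lowest fold change of the role. Its values were 6.44, 6.24 and 6.15 in PEC-enriched and 6.34, 6.22 and 6.13 in PEC-deprived isolates, which overlapped (log2 fold change 0.05, SE 0.109, limma adjusted p = 0.943). Ccna2 and Plk1, named after their values were seen, showed the distance of PEC-enriched replicate 1 most plainly. Ccna2, which acts in DNA replication and at the entry into mitosis, had values of 7.66, 6.98 and 6.84 in PEC-enriched and 6.90, 6.71 and 6.93 in PEC-deprived isolates. Plk1, a kinase of spindle assembly and mitotic entry, had 7.55, 6.89 and 6.63 against 6.93, 6.74 and 6.82. Replicate 1 was 0.68 above the next array in Ccna2 and 0.62 in Plk1, and the other PEC-enriched arrays lay close to the PEC-deprived ones. Ccnb2, Cdk1 and Aurkb followed the same order, with replicate 1 above the next array by 0.54, 0.35 and 0.32. A pair of probesets represented Ccnb2, and both had a log2 fold change of 0.09.

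The spindle checkpoint members Bub1, Bub1b, Mad2l1 and Ttk delay the separation of chromosomes, and Cdc20 activates the ubiquitin ligase that ends this delay. Of 5 members 4 had the higher mean in the PEC-enriched group, with a median log2 fold change of 0.27. Cdc20 had values of 7.67, 7.18 and 6.91 in PEC-enriched and 7.04, 6.89 and 6.98 in PEC-deprived isolates. PEC-enriched replicate 1 stood above the rest, replicate 2 also lay above all PEC-deprived arrays, and replicate 3 lay within their range (log2 fold change 0.29, SE 0.179, limma adjusted p = 0.689). Mad2l1 had values of 7.11, 6.80 and 6.93 in PEC-enriched and 6.98, 6.81 and 7.09 in PEC-deprived isolates, with a log2 fold change of -0.01 (SE 0.118, limma adjusted p = 0.989). It was the mitotic member with the smallest distance of PEC-enriched replicate 1 to the next array, 0.03. Bub1, Bub1b and Ttk had log2 fold changes of 0.27, 0.03 and 0.28, and without PEC-enriched replicate 1 they were 0.10, -0.16 and 0.15.

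The members of the spindle and of cytokinesis include the motors Kif11 and Kif23, the microtubule proteins Tpx2, Prc1 and Nusap1, and Birc5 (survivin), a subunit of the chromosomal passenger complex. All 6 measured members had the higher mean in the PEC-enriched group (median log2 fold change 0.23), and in all 6 PEC-enriched replicate 1 exceeded the next array by 0.23 to 0.53. Nusap1, a protein that bundles spindle microtubules, had values of 7.53, 6.96 and 7.01 in PEC-enriched and 7.08, 6.66 and 6.83 in PEC-deprived isolates. PEC-deprived replicate 1 lay above PEC-enriched replicates 2 and 3, so the groups overlapped (log2 fold change 0.31, SE 0.175, limma adjusted p = 0.645). Birc5 had values of 6.88, 6.54 and 6.55 in PEC-enriched and 6.64, 6.44 and 6.59 in PEC-deprived isolates. Again only PEC-enriched replicate 1 lay outside the PEC-deprived range (log2 fold change 0.10, SE 0.121, limma adjusted p = 0.874). Kif11, Kif23, Tpx2 and Prc1 had log2 fold changes of 0.26, 0.29, 0.15 and 0.21, which were 0.15, 0.17, -0.08 and -0.02 without PEC-enriched replicate 1. In each of these genes PEC-enriched replicate 2 also lay above all PEC-deprived arrays. The distance was widest in Kif11 (7.09 against 6.97 on PEC-deprived replicate 1) and narrowest in Prc1 (7.95 against 7.94 on that array).

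Top2a, the topoisomerase that untangles replicated chromosomes, was the measured chromosome protein. It had values of 8.89, 8.24 and 8.02 in PEC-enriched and 8.29, 8.07 and 8.10 in PEC-deprived isolates. PEC-enriched replicate 1 was 0.60 above the next array, which was PEC-deprived replicate 1, and PEC-enriched replicate 3 was the lowest of all. The log2 fold change was 0.23 (SE 0.208, limma adjusted p = 0.811), and without PEC-enriched replicate 1 it was -0.03. In the plot of single arrays, PEC-enriched replicate 1 lies apart from the others in Ccna2, Plk1 and Top2a.

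**Figure D3:**
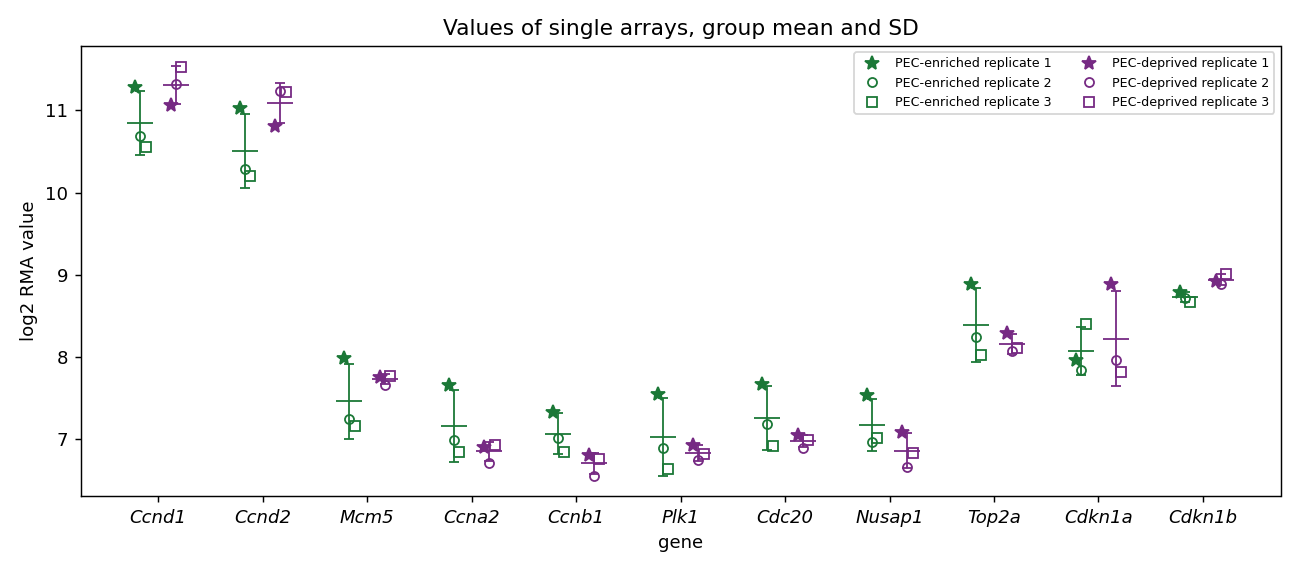
Log2 RMA values of 11 members on single arrays, PEC-enriched isolates in green and PEC-deprived isolates in purple. Stars are replicate 1, circles replicate 2 and squares replicate 3, and the horizontal dash with bars gives the mean and SD of 3 arrays. The green star of PEC-enriched replicate 1 lies highest in Mcm5, Ccna2, Ccnb1, Plk1, Cdc20, Nusap1 and Top2a, and the purple star of PEC-deprived replicate 1 lies highest in Cdkn1a.

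Foxm1 switches on mitotic genes and E2f1 those of DNA replication. Foxm1 had values of 8.10, 7.68 and 7.60 in PEC-enriched and 7.86, 7.70 and 7.75 in PEC-deprived isolates. As in the mitotic genes PEC-enriched replicate 1 was the highest, and the other PEC-enriched arrays were the lowest (log2 fold change 0.03, SE 0.14, limma adjusted p = 0.976). E2f1 had values of 6.68, 6.15 and 6.10 in PEC-enriched and 6.11, 6.40 and 6.73 in PEC-deprived isolates. PEC-enriched replicate 1 and PEC-deprived replicate 3 were high and the groups overlapped over nearly their whole range (log2 fold change -0.10, SE 0.199, limma adjusted p = 0.934).

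The CDK inhibitors did not share the order of the mitotic members, and neither was highest on PEC-enriched replicate 1. Cdkn1a had values of 7.96, 7.84 and 8.40 in PEC-enriched and 8.88, 7.96 and 7.81 in PEC-deprived isolates. PEC-deprived replicate 1 was the highest and PEC-enriched replicate 3 the next, and within the PEC-deprived isolates the values spanned 1.07, the widest range of that group among the members (log2 fold change -0.15, SE 0.277, limma adjusted p = 0.928). Without PEC-deprived replicate 1 the log2 fold change of Cdkn1a was 0.18. Cdkn1b had values of 8.79, 8.71 and 8.67 in PEC-enriched and 8.92, 8.88 and 9.01 in PEC-deprived isolates. Every PEC-enriched array lay below every PEC-deprived array, and the spread within each isolate was small, with SDs of 0.0630 and 0.0651 (n = 3 arrays each). The log2 fold change of Cdkn1b was -0.21 (SE 0.089, limma adjusted p = 0.448), a level 1.16-fold lower in PEC-enriched isolates.

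**Figure D4:**
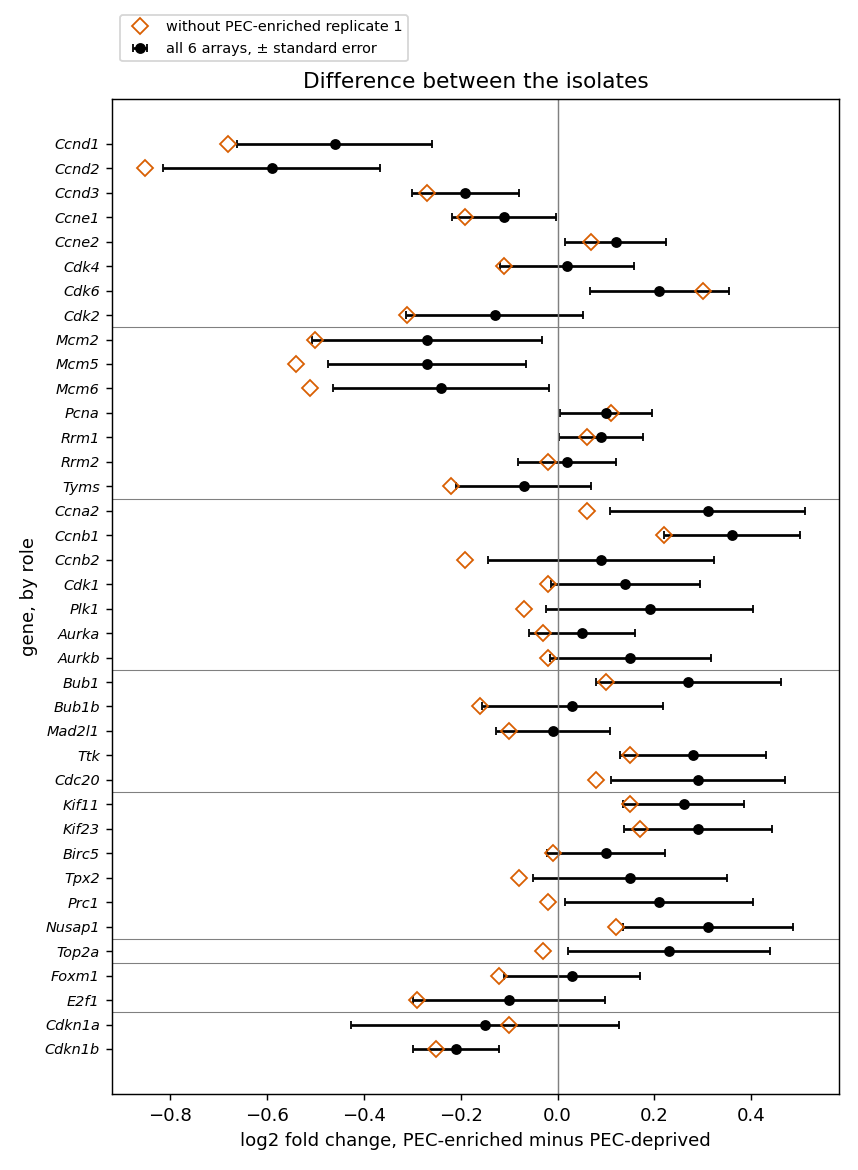
Log2 fold change of the 38 measured members, PEC-enriched minus PEC-deprived, grouped by role. Filled circles with bars are the limma estimate from 6 arrays and its standard error, and open diamonds are the value without PEC-enriched replicate 1, such as 0.23 and -0.03 for Top2a or -0.59 and -0.85 for Ccnd2.

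The PEC-enriched isolates varied more among themselves than the PEC-deprived isolates in these genes. The median SD of the members was 0.298 among the PEC-enriched and 0.119 among the PEC-deprived arrays, and over all genes it was 0.133 and 0.107. The range of the PEC-enriched arrays was the wider one in 34 of 38 members, and in 60.1% of all genes. In 31 of 38 members PEC-enriched replicate 3 was the lowest of the PEC-enriched arrays, which was the case in 36.3% of all genes. At the other end, PEC-deprived replicate 2 was the lowest of the 6 arrays in 13 of the 19 mitotic members and in 18.5% of all genes.

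Across the 6 arrays the mitotic members had a median pairwise Pearson r of 0.88 (171 pairs of genes, lowest 0.29), and with the group means removed the median was 0.90. Over all pairs of genes the median was 0.00. Ccnd1 and Ccnd2 had an r of 0.98 with each other and a median of 0.86 with the 3 MCM genes. Their median r with the mitotic members was 0.19, and 0.65 with the group means removed. The mitotic members had a median r of 0.58 with the DNA replication members and -0.15 with Cdkn1a. These values describe 6 arrays shared by all genes, of which 1 stands apart, and are no test.

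Other genes of the pathway were followed in 3 wider lists, and none of their genes passed the test. Of 84 genes of mitosis and cytokinesis 61 were measured, with a median log2 fold change of 0.08 (39 higher, 22 lower). PEC-enriched replicate 1 was the highest array in 42 of them, by more than 0.2 in 25, and without it the median was -0.05. Ect2, which directs the cleavage furrow, and the centromere protein Cenpk had the highest log2 fold changes, 0.40 and 0.39, and the phosphatase Cdc25b and the tubulin Tubb5 the lowest, -0.24 and -0.22. Of 50 genes of replication licensing and the fork 46 were measured, with a median of 0.02, and PEC-enriched replicate 1 was the highest in 28. The clamp loader subunit Rfc4 (0.41) and Dut (0.23), which removes dUTP, were at the top, and the DNA methyltransferase Dnmt1 (-0.25) and the licensing factor Cdt1 (-0.24) at the bottom. Rfc4 had values of 6.82, 6.76 and 6.73 in PEC-enriched and 6.43, 6.17 and 6.50 in PEC-deprived isolates, and kept 0.38 without PEC-enriched replicate 1 (all 6 arrays, SE 0.11, limma adjusted p = 0.258). Of 54 pocket proteins, E2F factors and other regulators 43 were measured, with a median of 0.01, and 16 were highest on PEC-enriched replicate 1. E2f5 (0.40) and the phosphatase Cdkn3 (0.39) were highest, and the pocket protein Rbl2 (-0.27) and Mycn (-0.25) lowest. Over these lists, PEC-enriched replicate 1 was thus the highest array more often in mitotic than in regulatory genes, a difference that was not tested.

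The known targets of p53, the factor that induces Cdkn1a, were set beside it. Of 25 listed 21 were measured, none passed the test, and the median log2 fold change was -0.06 with 5 higher and 16 lower. Gadd45a (0.88) and Perp (0.65) had the highest and Plk2 (-0.63) and Fas (-0.45) the lowest log2 fold changes. In 0 of 21 was PEC-enriched replicate 1 the highest array. On PEC-deprived replicate 1, where Cdkn1a was highest, the mean centred value of the list was 0.05.

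Markers of other cells were read on the same arrays. The 8 measured of 11 listed podocyte markers, Nphs1 and Wt1 among them, had a mean log2 level between 11.60 and 11.93 in PEC-enriched isolates. In PEC-deprived isolates this mean lay between 11.77 and 11.86. In 7 of these 8, PEC-enriched replicate 1 was the lowest of the 6 arrays, with a centred mean of the list of -0.21 there and -0.05 to 0.11 on the others. The 11 PEC markers, Cldn1 and Pax8 among them, all had higher means in PEC-enriched isolates, and their mean level ran from 7.76 to 8.24 against 6.91 to 7.37. PEC-enriched replicate 1, the array with the highest mitotic values, was the lowest of the PEC-enriched arrays in mean PEC marker level, with a centred mean of 0.20 beside 0.68 and 0.40. This list is not a measure of PECs alone, since the study's own staining found the proteins of Cdh6 and Pax8 in tubules as well. The proximal tubule list was also highest on PEC-enriched replicate 2, with centred means of 0.31, 0.81 and 0.21 on the PEC-enriched arrays. Markers of the thick ascending limb shared their highest array with the mitotic members. PEC-enriched replicates 2 and 3 both lay above all PEC-deprived arrays in 1 of 19 mitotic members, Ccnb1. Replicate 2 alone did so in the other mitotic members named above. For the thick ascending limb markers both replicates did so in 6 of 6. All 6 measured of 7 listed, with Umod (uromodulin) and the transporter Slc12a1 among them, were highest on PEC-enriched replicate 1, with centred means of 1.29, 0.87 and 0.70 on the PEC-enriched and -0.21, -1.48 and -1.17 on the PEC-deprived arrays, and mean levels of 8.38 to 8.97 and 6.20 to 7.47. Of 8 markers of the collecting duct and distal tubule 5 were highest on that array, with mean levels of 7.16 to 7.44 and 6.03 to 6.72. Of the 11 proximal tubule markers 0 were highest there, with mean levels of 9.92 to 10.52 and 8.68 to 9.87. Leukocyte markers were highest on that array in 3 of 10, mesangial and smooth muscle markers in 2 of 7 (Pdgfrb and Gata3, mean levels 8.78 to 9.03 and 8.81 to 8.83) and erythroid markers in 1 of 4 (8.53 to 8.69 and 8.17 to 8.61). The erythroid marker was Slc4a1, which is also counted in the list of the collecting duct and distal tubule. These values have no zero, so no marker was read as absent, and the part of tubular or other cells in the mitotic values was not tested.

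**Figure D5:**
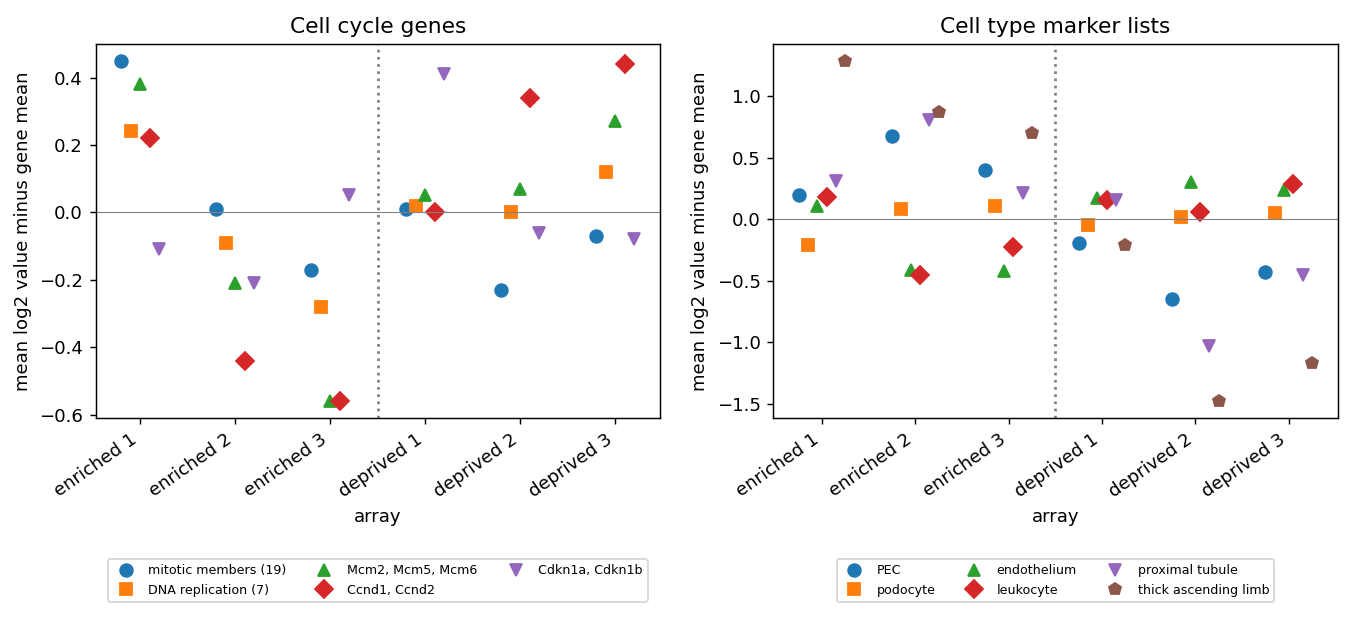
Mean of gene-centred log2 values on each array, for groups of cell cycle genes (left) and cell type marker lists (right), with PEC-enriched arrays left of the dotted line. The mitotic members (blue circles, left) are highest on PEC-enriched replicate 1 at 0.45, where the thick ascending limb markers (pentagons, right) reach 1.29, while endothelial markers (triangles, right) are lowest on PEC-enriched replicates 2 and 3 at -0.41 and -0.42.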

How the data were processed

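RNA of 6 glomerular isolates was measured on Affymetrix rat arrays, 1 array each. The authors adjusted the background, quantile normalized and summarized probesets by RMA, and the deposited values are on the log2 scale, as RMA gives them. The base is not stated for the table, and which software and probeset definition were used is not given in the sources used here. Detection calls were not used, so signal over background is unknown, and levels of different probesets were not compared. The unused columns of per-sample values numbered 0. Of 29215 probesets, 15310 had 1 gene symbol in the platform annotation, 323 several and 13582 none. Array medians lay between 6.69 and 6.75, correlations between arrays were 0.982 to 0.994, and no arrays were identical.

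All probesets were fitted with the limma package (3.58.1, under R 4.3.3) by lmFit and eBayes, without covariates, and two-sided p-values were adjusted by Benjamini-Hochberg, with the threshold of 0.01 that the methods name. Named were the members with the highest and lowest log2 fold change of each role, those without overlap, Mki67, Top2a, Ccnd1, Cdkn1a and Cdkn1b, and the 2 highest and 2 lowest genes of each wider list. Others were named after their values were seen. Members and lists were chosen with earlier results of these data known. Alternatives were a replicate block, a trend of variance with intensity, array weights, a regularised t-test (weight of the local variance 10), other filters, scalings and thresholds, and each array left out. The fit was tested on simulated data.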

Additional observations from a re-analysis of the deposited data

How the results depend on the processing

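No member and no gene of the wider lists passed the threshold under any alternative. Over all probesets the regularised t-test called 334 against 0 with limma, and leaving out 1 array gave 0 to 1, the 1 without PEC-deprived replicate 1. The methods do not pair the arrays, so the replicate numbers were not read as pairs. Correlations of deviations between same-numbered isolates were -0.03, 0.05 and 0.1 for numbers 1, 2 and 3. With 3 arrays per group these cannot show whether such isolates came from the same rat. With the replicate number as a block 0 members and 0 probesets passed. Without PEC-enriched replicate 1 the log2 fold change changed sign in 13 of 38 members, 10 of them among the 19 mitotic ones. Of the members named by rule, the following changed sign when 1 array was left out. Aurka ranged from -0.032 to 0.111, Mad2l1 from -0.098 to 0.061, Birc5 from -0.012 to 0.157, Top2a from -0.027 to 0.411, Foxm1 from -0.124 to 0.127, E2f1 from -0.287 to 0.056 and Cdkn1a from -0.356 to 0.182. With array weights Mad2l1 was 0.007. The mitotic median ranged from -0.02 to 0.39 and that of all members from -0.05 to 0.14. The order of the arrays and the comparison with PEC-enriched replicates 2 and 3 alone were added after seeing the data. The signal over background of each probeset is unknown, and 3 arrays per isolate set the precision.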

Other observations

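Among the 60 genes in which PEC-enriched replicate 1 exceeded the next array by most, 8 were cell cycle members and 8 belonged to the wider cell cycle lists. Of all 14506 genes, 38 were members and 150 belonged to the wider lists. The largest distances were those of the chemokine Cxcl13 (1.13 on the log2 scale) and Ly6i (1.01). The distal tubule genes Slc12a3 (0.81) and Calb1 (0.68) and the thick ascending limb gene Umod (0.64) were also among them, beside Ccna2 (0.68), Plk1 (0.62) and Top2a (0.60). This ranking was made after the values were seen, and nothing was tested on it.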
